A study of Mus musculus with 3 samples.

Results

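Cycling skin cells were chosen by their counts, as the cell barcodes that held at least 2 of 6 genes that dividing cells express: *Mki67*, *Top2a*, *Cdk1*, *Cenpf*, *Birc5* and *Ube2c*. They were sought among barcodes with 200 or more detected genes and at most 20% mitochondrial counts, and 179 of the 5760 kept barcodes met the rule. The libraries came from dorsal skin at postnatal day 18 (P18), when the first regression of the hair follicle (HF) is under way, and were made on the Nadia droplet instrument, in which each cell's transcripts receive a barcode of 12 bases. There were 2 control libraries (*Vdr* flox/flox) and 1 *Vdr* cKO-labelled library (*Vdr* flox/flox; Krt14cre), so both groups carry the floxed *Vdr* alleles and only the latter carries Cre. Cre is driven by the promoter of *Krt14*, a keratin gene of basal keratinocytes, and the study's methods state that each library pooled the skin of 3 male mice. The cells were freed from the skin with trypsin, and the labels call them epidermis cells. Control 1, control 2 and the *Vdr* cKO-labelled library held 2788, 2460 and 2782 barcodes with 19943755, 29241653 and 31080936 counts. Of these, 1480, 1658 and 2622 barcodes were kept, and 9, 18 and 152 of them were cycling.

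A dividing cell copies its DNA in S phase with the MCM helicase, PCNA and the enzymes that make nucleotides, and then condenses and separates its chromosomes in mitosis under cyclin B, CDK1 and the Aurora and Polo kinases. In the epidermis, division takes place mainly in the basal layer, which expresses *Krt5* and *Krt14*, and cells leave the cycle as they move outwards and turn on *Krt10* and later *Lor*, the gene of loricrin. In the HF, matrix cells divide during growth, and the lower follicle is lost in regression.

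Several properties of the libraries bear on every value below. The deletion of *Vdr* could not be seen in the counts, which do not separate exons: kept barcodes held 40.7, 35.9 and 80.8 counts per 1000000 counts (CPM) of *Vdr* in control 1, control 2 and the *Vdr* cKO-labelled library. *Xist*, which is expressed from the inactive X chromosome of female cells, had no count in either control and was found in 740 of the 2622 kept barcodes of the *Vdr* cKO-labelled library, whereas 1 or more of the Y-linked genes *Ddx3y*, *Eif2s3y*, *Kdm5d* and *Uty* was found in 270, and 110 barcodes had both. This library therefore stood apart from the controls and from the stated sex of the mice. Among its 152 cycling barcodes, 67 had *Xist*, 30 had a Y-linked gene and 15 had both.

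Barcodes were also not always separate cells. Many were the copy of another barcode of the same library moved by 1 base, with counts that went with it. One such pair of the *Vdr* cKO-labelled library is shown with the shared letters in capitals, 5′ to 3′.
First barcode: aGGATGAGCATG
Second barcode: GGATGAGCATGa
The first had 192180 counts and 5205 detected genes and the second 58999 counts and 4596 genes, both held all 6 genes of the rule, and the Pearson correlation of their log counts across genes, which are not independent replicates, was 0.921. In control 1, control 2 and the *Vdr* cKO-labelled library, 120, 298 and 472 such pairs were found among kept barcodes, with median correlations of 0.849, 0.825 and 0.761, against 0.339, 0.364 and 0.362 for barcodes of like depth. Of the cycling barcodes, 6, 12 and 88 belonged to such a pair. In addition, 6 cycling barcodes, some of them also in such pairs, 2 in control 2 and 4 in the *Vdr* cKO-labelled library, shared the letters GATTGCGGA and had 4137 to 10096 detected genes. Values are therefore also given with such pairs summed and these barcodes left out, called merged below, which left 7, 12 and 117 cycling barcodes of 1362, 1364 and 2149 kept. Between libraries, 1 cycling barcode of control 2 and 3 of the *Vdr* cKO-labelled library were shared with another library.

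Cycling barcodes made up 0.608% of the kept barcodes of control 1 (95% Clopper-Pearson interval 0.278% to 1.15%), 1.09% of control 2 (0.645% to 1.71%) and 5.80% of the *Vdr* cKO-labelled library (4.93% to 6.76%). The 2 control intervals overlapped each other and lay below that of the *Vdr* cKO-labelled library. The intervals cover counting error only, and with 1 such library no test between genotypes was made. The kept barcodes of that library also differed in keratinocyte markers. *Krt5* was found in 37.0%, 34.3% and 81.7% of the kept barcodes of control 1, control 2 and the *Vdr* cKO-labelled library. Genes of the differentiated epidermis, a list described below, had 132679, 142751 and 95561 CPM. Whether this bears on the shares was not tested. After merging, the shares were 0.514%, 0.880% and 5.44%. The chance of finding 2 of 6 genes rises with the number of genes found, and cycling barcodes were larger than the rest, with medians of 606, 899 and 1136.5 detected genes against 377, 500 and 672.5.

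At like numbers of detected genes, the shares of the *Vdr* cKO-labelled library were the highest of the 3 libraries in each range, but the interval stood clear of both controls in only 2 of the 4 ranges. Among barcodes with at least 200 and under 400 genes they were 0.491%, 0.654% and 1.00%, with overlapping intervals. Among those with at least 400 and under 800 genes they were 0.213%, 0.565% and 3.86%, and the lower bound of 2.77% in the *Vdr* cKO-labelled library lay above the control bounds of 1.18% and 1.64%. From 800 to under 1600 genes they were 2.88%, 1.77% and 8.26%, where the 104 barcodes of control 1 left its interval as wide as 0.599% to 8.20%. From 1600 genes on they were 1.09%, 2.59% and 12.2%, and the lower bound of 9.30% lay above the control bounds of 5.91% and 5.54%. After merging, the shares in this range were 3.64%, 1.97% and 13.4%, and the upper bound of 12.5% in control 1 lay above the lower bound of 9.87% in the *Vdr* cKO-labelled library, so that its interval stood clear of both controls in 1 range, from 400 to under 800 genes. Standardised to the detected genes of the kept barcodes with under 3200 genes, which left out 129 larger ones, 0, 4 and 22 of them cycling, the shares were 0.958%, 0.876% and 4.3%, so that the *Vdr* cKO-labelled library was 2.23 above the control mean on the log2 scale. With each barcode thinned to 1000 counts, which left out 14, 61 and 60 barcodes, 5 of 1466, 8 of 1597 and 56 of 2562 barcodes remained cycling, or 0.341%, 0.501% and 2.19%.

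**Figure D1:**
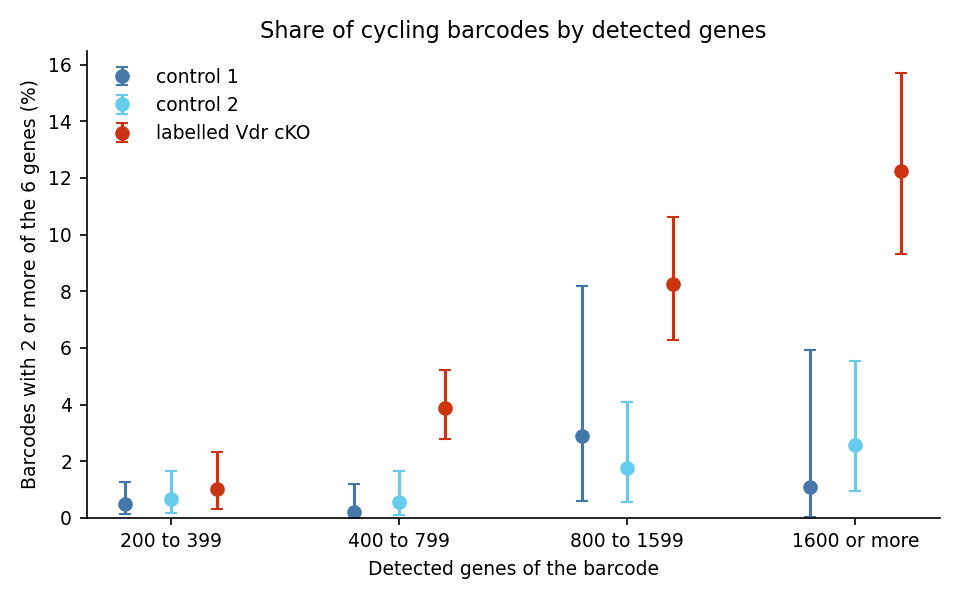
Percentage of kept barcodes with 2 or more of the 6 genes (y axis) in 4 ranges of detected genes (x axis), by library; bars are 95% Clopper-Pearson intervals. The *Vdr* cKO-labelled library rises from 1.00% to 12.2% across the ranges, while the controls stay at or below 2.88% with barcodes as deposited (3.64% after merging).

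The 6 genes chose the barcodes, so their values are a description. *Top2a*, the topoisomerase that untangles replicated chromosomes, was the gene found most often: 7 of 9, 17 of 18 and 114 of 152 cycling barcodes had it. *Mki67*, the gene of the proliferation antigen Ki-67, was found in 3, 11 and 93, and *Cenpf*, which encodes a kinetochore protein, in 3, 6 and 92. *Cdk1*, the mitotic kinase, was found in 3, 7 and 41, *Ube2c*, which encodes the ubiquitin-conjugating enzyme of the anaphase-promoting complex, in 5, 4 and 42, and *Birc5*, the gene of survivin, in 0, 2 and 42. Most cycling barcodes lay at the edge of the rule: 7 of 9, 10 of 18 and 83 of 152 had 2 of the 6 genes, and 84, 114 and 355 barcodes just outside it had 1. An expected number was taken from the rate of each gene in all kept barcodes of like detected genes, cycling ones included. Were the 6 genes found independently of each other at these rates, 2.89, 6.64 and 98.6 cycling barcodes would be expected, against 9, 18 and 152. This difference was not tested. All 6 genes were found together in 6 barcodes, all in the *Vdr* cKO-labelled library. In that library the commonest pair was *Mki67* with *Top2a*, found together in 65 cycling barcodes.

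A background was read from barcodes with 20000 CPM or more of *Lor*, a range and not a cell type, since granular keratinocytes should not divide. Of these, 0 of 277 in control 1 met the rule, which allows a share of up to 1.08% (3 counts of the total; the Clopper-Pearson upper bound is 1.32%), 6 of 332 in control 2 (1.81%) and 14 of 344 in the *Vdr* cKO-labelled library (4.07%, interval 2.24% to 6.73%). Their medians of 341, 495.5 and 748 detected genes were close to those of all kept barcodes. The 1.09% of control 2 did not exceed its *Lor*-high share and cannot be told apart from background by this measure, whereas after merging 2 of 263 *Lor*-high barcodes were cycling there (0.760%, interval 0.0922% to 2.72%), beside 0.880% of all. The share of control 1 lay under the limit that its count of 0 allows, and the 5.80% of the *Vdr* cKO-labelled library lay within the interval of its *Lor*-high share. Within the *Vdr* cKO-labelled library the share was highest where *Lor* was low: 60 of 570 barcodes below 1000 CPM of *Lor* were cycling (10.5%, interval 8.13% to 13.3%), 40 of 655 between 1000 and 5000 CPM (6.11%), and 38 of 1053 between 5000 and 20000 CPM (3.61%, interval 2.57% to 4.92%). At 800 to under 1600 detected genes the 4 shares, from low to high *Lor*, were 11.2%, 11.6%, 3.24% and 4.88%. After merging, 45 of 394 barcodes below 1000 CPM (11.4%) and 8 of 269 at 20000 CPM or more (2.97%) were cycling. From low to high *Lor*, the shares of all kept barcodes were 2.48%, 1.03%, 0.141% and 0% in control 1. In control 2 they were 0.796%, 1.35%, 0.767% and 1.81%, so the fall with *Lor* was not seen there. After merging, control 2 had 0.403%, 1.65%, 0.820% and 0.760%. These control shares rest on few cycling barcodes.

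The promoters of the rule genes hold 2 short motifs that are known from cell cycle promoters, the CCAAT box bound by NF-Y and the CHR element, here searched as the letters CCAAT and TTTGAA on both strands (ATTGG and TTCAAA on the other). Windows of 300 bases, from 250 bases before to 50 after the start in RefSeq (GRCm38.p6, the assembly of the authors' mm10), are shown 5′ to 3′ on the gene's strand with these letters in capitals, for 3 genes of the rule that hold both and for *H1f5*, a gene taken up below. They lie at chr11:99024140-99024439 on the minus strand (*Top2a*), chr10:69352863-69353162 on the minus strand (*Cdk1*), chr2:164769679-164769978 on the plus strand (*Ube2c*) and chr13:21780576-21780875 on the minus strand (*H1f5*).
Top2a: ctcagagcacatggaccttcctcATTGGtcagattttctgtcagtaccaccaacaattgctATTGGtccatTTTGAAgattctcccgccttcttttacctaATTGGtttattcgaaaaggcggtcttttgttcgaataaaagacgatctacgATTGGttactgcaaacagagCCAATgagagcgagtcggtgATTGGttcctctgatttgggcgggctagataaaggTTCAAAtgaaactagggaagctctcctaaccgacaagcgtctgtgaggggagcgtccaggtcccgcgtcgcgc
Cdk1: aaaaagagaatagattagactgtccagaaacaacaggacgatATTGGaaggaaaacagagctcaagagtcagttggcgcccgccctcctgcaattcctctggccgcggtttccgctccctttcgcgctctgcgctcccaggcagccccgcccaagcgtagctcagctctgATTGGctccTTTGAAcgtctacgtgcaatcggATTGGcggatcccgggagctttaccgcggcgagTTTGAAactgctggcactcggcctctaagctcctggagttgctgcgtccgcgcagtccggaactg
Ube2c: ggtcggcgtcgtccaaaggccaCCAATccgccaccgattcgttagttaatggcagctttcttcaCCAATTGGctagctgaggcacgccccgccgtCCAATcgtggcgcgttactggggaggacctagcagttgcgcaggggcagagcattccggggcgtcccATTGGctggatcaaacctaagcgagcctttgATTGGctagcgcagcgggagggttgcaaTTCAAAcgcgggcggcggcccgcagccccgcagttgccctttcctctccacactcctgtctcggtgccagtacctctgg
H1f5: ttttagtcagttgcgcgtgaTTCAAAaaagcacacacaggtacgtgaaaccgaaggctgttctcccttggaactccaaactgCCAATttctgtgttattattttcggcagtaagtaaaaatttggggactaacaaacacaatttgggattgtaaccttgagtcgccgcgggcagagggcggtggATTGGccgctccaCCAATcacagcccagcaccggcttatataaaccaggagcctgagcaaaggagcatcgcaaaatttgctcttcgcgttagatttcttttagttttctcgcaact
Of the 6 rule genes, 5 had both motifs, and *Birc5* had neither in this window, nor did *Nusap1*, the other gene taken up below, which says only that these letters are not there. A list of 45 mitosis genes that the rule did not use was matched to RefSeq for 38, of which 23 (60.5%) had both motifs, against 7.97% of all 27025 genes with a window and 5.85% of the 5740 genes with a window that were found in at least 10 barcodes of the comparison described next. Of the replication list, 29 of 34 genes were matched and 4 had both (13.8%), whereas 9 (31.0%) had the letters TTTGGCGC or TTTCCCGC of E2F sites, against 1 mitosis gene (2.63%) and 1.80% of all genes. A match of letters is a description and not a bound site.

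To see what else cycling barcodes expressed, each was compared with another kept barcode of the same library and of like number of detected genes, with 9, 17 and 149 pairs. The median number of detected genes was 606, 876 and 1118 in cycling and 606, 877 and 1118 in matched barcodes, and the median counts were 9505, 15886 and 8446 against 7543, 10698 and 7454. A gene was counted as found in a barcode when it had at least 1 count there. With counts summed in each library and the library as a block, edgeR tested 5387 genes outside the rule. The test called 2 genes higher (0.0371% of those tested) and 0 lower at an adjusted p of 0.05, with 51 and 25 genes at an unadjusted p below 0.05. DESeq2 called 13 higher and 1, *Gosr1*, lower. Pairs of 3 libraries cannot give an exact two-sided permutation p below 0.25 for a single gene, so the remaining genes are described by their values in each library.

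*Nusap1*, which encodes a protein that bundles the microtubules of the spindle, was found in 2 of 9, 2 of 17 and 52 of 149 cycling barcodes and in 0, 1 and 2 matched ones. Its summed level was 1893, 122 and 232 CPM in cycling barcodes against 0, 6.21 and 0.838 CPM in matched ones, so cycling barcodes were higher in 3 of 3 libraries and the sets did not overlap. The fitted log2 difference was 7.30 (edgeR, adjusted p = 0.00167), which depends on the prior count where a sum is 0. After merging it was 3.68 and did not pass (adjusted p = 0.9996), with *Nusap1* found in 1 of 7, 1 of 12 and 41 of 117 cycling and 0, 1 and 5 matched barcodes. *H1f5*, a replication-dependent linker histone gene, was found in 3, 3 and 18 cycling and 0, 1 and 1 matched barcodes. Its level was 2495, 206 and 88.8 CPM against 0, 8.28 and 2.51 CPM, and its log2 difference of 6.09 (edgeR, adjusted p = 0.00167) was higher in 3 of 3 libraries. *H1f5* still passed after merging (edgeR, adjusted p = 0.00981) but not when matched on total counts (log2 difference 3.92, adjusted p = 0.0910) or among barcodes with 300 or more genes and under 5% mitochondrial counts (5.81, adjusted p = 0.172). Neither gene passed without control 1, without control 2 or without the *Vdr* cKO-labelled library, where the log2 differences were 6.20, 9.06 and 6.76 for *Nusap1* and 4.85, 7.30 and 7.05 for *H1f5*.

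Genes of mitosis were found far more often in cycling barcodes in each of the 3 libraries. A cycling barcode had on average 3.67, 4.94 and 7.05 of the 45 mitosis genes in control 1, control 2 and the *Vdr* cKO-labelled library, against 1.00, 1.24 and 1.52 in matched barcodes. Their summed level was 7198, 1953 and 3367 CPM against 1529, 176 and 445 CPM, a log2 difference of 2.23, 3.47 and 2.92, or of 3.74, 2.17 and 2.41 after merging. After merging, the mean numbers were 3.86, 5 and 7.01 against 0.571, 1.33 and 1.58. In the *Vdr* cKO-labelled library, 36 mitosis genes were found in at least 10 barcodes of either set, and 33 of them were found in at least 2 times as many cycling as matched barcodes, beside 6.5% of all 7228 genes judged this way, and 0 in at least 2 times as many matched barcodes, beside 5.45%. Of the 36, 28 reached 10 barcodes in the cycling set alone and so had to lean that way, and of the 8 that reached 10 in the matched set 5 had the ratio, so the count of 33 is given as a description. Without any minimum, 44 of the 45 genes were found in more cycling than matched barcodes of that library and 1 in fewer, beside 6554 and 6583 of 19921 genes. After merging, 31 of 34 had the ratio. Of 20 mitosis genes found in all 3 libraries, 14 were found in more cycling barcodes in each of them, beside 9.01% of all 4818 such genes, and 1 in fewer, beside 11.8%. Of the 20, 15 were missing from the matched set of at least 1 library and so could not be found in fewer cycling barcodes there, and of the other 5 *Smc4* alone was found in more in each, so this count too is a description. The edgeR test, which covered 13 of the 45, called *Nusap1* alone.

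Of the mitosis genes named next, *Smc4*, *Kif20b* and *Ccnb2* had the highest mean levels after *Nusap1*, and the others were chosen after their values were seen. For the condensins, which compact chromosomes, *Smc4* was found in 3, 9 and 93 cycling against 1, 4 and 42 matched barcodes, and *Smc2* in 1, 7 and 48 against 0, 0 and 13. *Smc4* had 513, 232 and 554 CPM against 526, 22.8 and 121 CPM, so the summed level was not higher in control 1. For the motors, *Kif20b*, a kinesin of cytokinesis, was found in 2, 5 and 28 against 0, 0 and 4, *Cenpe*, the kinetochore kinesin, in 1, 2 and 37 against 0, 0 and 1, and *Kif11*, which pushes the spindle poles apart, in 0, 4 and 27 against 0, 0 and 1. For the spindle and the cleavage furrow, *Prc1* was found in 1, 3 and 45 against 0, 1 and 12, *Anln* in 1, 2 and 33 against 0, 0 and 4, and *Tpx2* in 0, 2 and 30 against 0, 1 and 2. For the cyclins, *Ccnb2* was found in 2, 1 and 19 against 0, 0 and 1, and *Ccnb1* in 0, 0 and 14 against 1, 0 and 2. *Sgo1*, which guards the cohesion of centromeres, was found in 22 cycling barcodes of the *Vdr* cKO-labelled library and in no other barcode of the comparison. Numbers in the controls were small. The exception was *Pttg1*, the gene of securin, which was found in fewer cycling than matched barcodes, 0, 1 and 15 against 3, 3 and 22, but in 1, 1 and 14 against 1, 1 and 15 after merging.

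**Figure D2:**
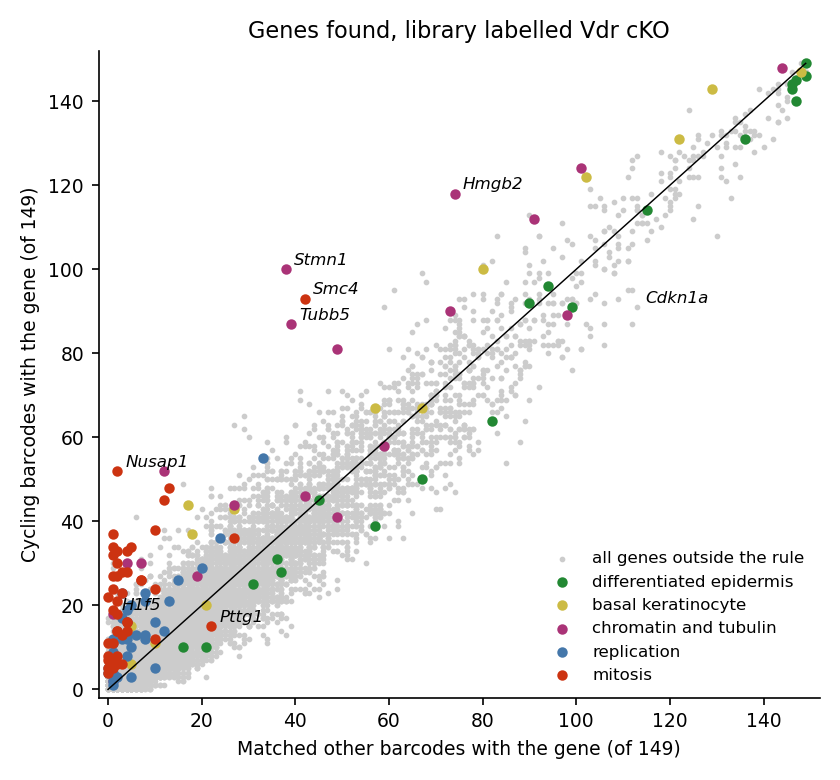
Number of matched other barcodes (x axis) and of cycling barcodes (y axis) in which each gene outside the rule had a count, in the 149 pairs of the *Vdr* cKO-labelled library; the line marks equal numbers. Mitosis genes lie above the line, with *Nusap1* at 52 against 2 and *Smc4* at 93 against 42, and *Pttg1* and *Cdkn1a* lie below it.

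More mitosis genes were found in barcodes with 2 or more rule genes than in those with fewer. In the *Vdr* cKO-labelled library, barcodes with 0, 1, 2, 3 and 4 or more rule genes had 0.917, 1.47, 3.27, 5.92 and 5.02 mitosis genes found for each 1000 detected genes. The value was thus highest at 3 rule genes and lower again at 4 or more. In control 1 the values at 0, 1 and 2 rule genes were 0.678, 0.962 and 2.24, and in control 2 they were 0.620, 0.757 and 1.86, with 9.06 at 3 and 2.86 at 4 or more. The value at 2 rule genes was above that at 1 in 3 of 3 libraries. The 1 barcode of control 1 with 3 rule genes had 12 mitosis genes and the 1 barcode with 4 had 10, but they were a pair moved by 1 base, with a correlation of 0.806.

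**Figure D3:**
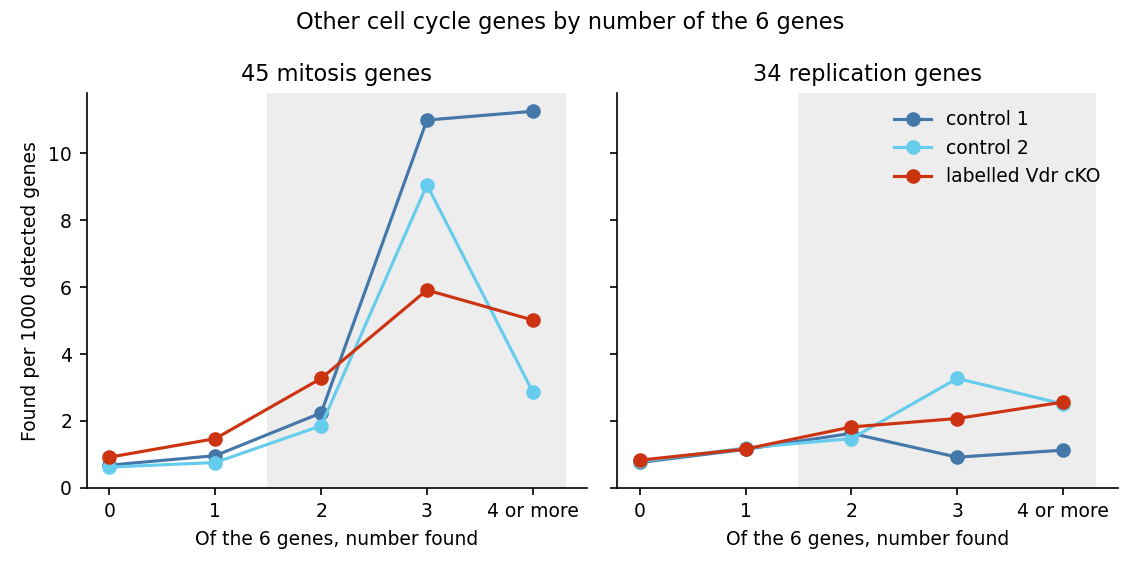
Mitosis genes (left) and replication genes (right) found per 1000 detected genes (y axis) in barcodes with 0 to 4 or more of the 6 rule genes (x axis), by library; the shaded area marks the cycling barcodes. In the *Vdr* cKO-labelled library the mitosis genes rise from 0.917 to 5.92 between 0 and 3 rule genes and the replication genes from 0.828 to 2.07; control points from 3 rule genes on rest on 1 to 5 barcodes.

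Genes of DNA replication were also found more often in cycling barcodes of each library. The mean number found of the 34 genes was 1.11, 2.94 and 3.28 in cycling and 0.556, 1.76 and 1.52 in matched barcodes. Their summed level was 1854, 582 and 1207 CPM against 347, 455 and 456 CPM, and the log2 difference of 0.35 in control 2 was the smallest of 2.41, 0.35 and 1.40. After merging the log2 differences were 2.95, 0.13 and 1.06. In the *Vdr* cKO-labelled library, 14 of 24 were found in at least 2 times as many cycling barcodes and 1 in at least 2 times as many matched ones, beside the 6.5% and 5.45% of all genes, and 8 of 17 and 0 after merging. All of these 14 reached 10 barcodes in the cycling set alone, and 0 of the 8 genes that reached 10 in the matched set had the ratio. The edgeR test covered 8 of them and called none. Of the MCM helicase, *Mcm2* was found in 12 cycling against 1 matched barcode, *Mcm3* in 11 against 1 and *Mcm7* in 21 against 8, all in the *Vdr* cKO-labelled library. *Uhrf1*, which keeps DNA methylation through replication, was found in 23 against 3 there, *Tyms*, the thymidylate synthase gene, in 20 against 5, and *Clspn*, a gene of the replication checkpoint, in 19 against 4. *Tyms* went the other way in control 2, in 0 cycling against 2 matched barcodes, and had no count in the pairs of control 1. *Clspn* was also found in 2 and 3 cycling and in no matched barcode of the controls. Of the other 3 replication genes with the highest mean level, *Nasp*, a histone chaperone gene, was found in 1, 5 and 55 against 2, 7 and 33, *Rrm2*, of ribonucleotide reductase, in 1, 1 and 14 against 2, 3 and 12, and *Dnmt1*, of the maintenance DNA methyltransferase, in 2, 4 and 29 against 0, 2 and 20. *Pcna*, the gene of the sliding clamp, was found in 0, 3 and 36 against 0, 2 and 24.

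By the number of genes of each list, more cycling barcodes carried mitosis genes than replication genes alone. In the *Vdr* cKO-labelled library, 87 of 149 had at least 2 genes of both lists, 37 of mitosis alone, 5 of replication alone and 20 of neither. Of the matched barcodes, 32, 24, 16 and 77 fell into these classes. In control 2 the cycling barcodes numbered 7, 8, 1 and 1, and in control 1 they numbered 0, 6, 2 and 1. The rule itself used genes of mitosis such as *Cdk1* and *Cenpf*. The mitosis list is also the longer, with 45 against 34 genes. These classes are therefore a description and do not measure the phase of the cells.

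Genes of chromatin and tubulin that dividing cells use heavily were also found in more cycling barcodes. The mean number found of 21 genes was 6.11, 8.12 and 8.76 in cycling against 3.67, 5.47 and 6.24 in matched barcodes. The log2 difference of their summed level was 1.39, 0.67 and 0.78, or 1.30, 0.21 and 0.59 after merging. In the *Vdr* cKO-labelled library, 6 of 18 were found in at least 2 times as many cycling barcodes and 0 in at least 2 times as many matched ones, beside the 6.5% and 5.45% of all genes, with the same counts after merging. Of the 15 that reached 10 barcodes in the matched set, 3 had the ratio. The edgeR test covered 17 and called *H1f5* alone. Among the most abundant, *Hmgb1*, a DNA-bending chromatin protein gene, was found in 8 of 9, 17 of 17 and 124 of 149 cycling against 2, 6 and 101 matched barcodes, and had 1735, 1070 and 919 CPM against 39.2, 313 and 458 CPM. *Hmgb1* thus differed most in the controls. Its relative *Hmgb2* was found in 7, 11 and 118 against 5, 8 and 74, with 1331, 640 and 832 CPM against 739, 118 and 239 CPM. After merging, *Hmgb2* was found in 5, 8 and 91 against 1, 8 and 57, so control 2 no longer had more. *Ptma*, the gene of prothymosin alpha, was found in nearly every cycling barcode, 9, 17 and 148, against 7, 13 and 144 matched ones. *Stmn1*, whose product takes microtubules apart, was found in 0, 6 and 100 against 0, 2 and 38, *Tubb5*, a tubulin gene, in 4, 5 and 87 against 2, 5 and 39, and *Lmnb1*, of the nuclear lamina, in 2, 3 and 30 against 0, 1 and 4. *Tubb4b*, another tubulin gene, was found in fewer cycling barcodes, 4, 8 and 89 against 8, 14 and 98.

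Of 15 genes that govern the entry into the cycle, 7 were found in more and 8 in fewer cycling barcodes of the *Vdr* cKO-labelled library, beside 6554 and 6583 of 19921 genes. Of 11 such genes found in at least 10 barcodes of the *Vdr* cKO-labelled library, 0 reached a ratio of 2 in either direction, beside the 6.5% and 5.45% of all genes, and the summed level of the list was 1765, 2154 and 2404 CPM in cycling against 3516, 2279 and 2648 CPM in matched barcodes. After merging it was 3382, 2367 and 2393 CPM against 3165, 2644 and 2422 CPM, so the order in control 1 turned. *Cdkn1a*, the gene of the cell cycle inhibitor p21 and the most abundant of the list, was found in fewer cycling barcodes in each library, 2, 9 and 91 against 7, 13 and 113, and had 1016, 1566 and 1358 CPM against 2604, 1836 and 1724 CPM. It did not pass the test (edgeR, log2 difference -0.63, adjusted p = 0.9996). *Ccnd2*, a D-type cyclin gene, was found in 3, 7 and 81 against 1, 2 and 64, *Cdkn1b*, of the inhibitor p27, in 1, 5 and 40 against 0, 3 and 34, and *Cdk6* in 0, 5 and 33 against 1, 4 and 34.

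**Figure D4:**
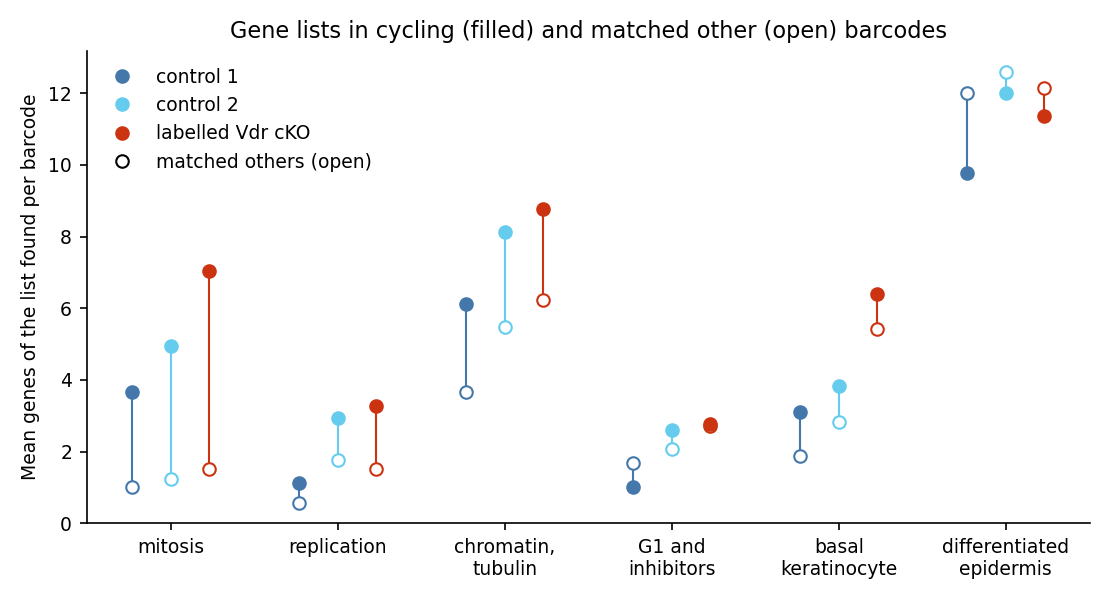
Mean number of genes of 6 lists found per barcode (y axis) in cycling barcodes (filled) and matched other barcodes (open), by library, with 9, 17 and 149 pairs. The gap is widest for mitosis, 7.05 against 1.52 in the *Vdr* cKO-labelled library, and turns round for differentiated epidermis.

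Keratin genes of keratinocytes were found in most cycling barcodes, with a mixed picture for the basal layer. *Krt10* was found in all 179 cycling barcodes, but also in 1478 of 1480, 1648 of 1658 and 2606 of 2622 kept barcodes, so finding it does not tell cells apart here. *Krt5*, a keratin gene of the basal layer, was found in 5, 15 and 143 cycling against 3, 6 and 129 matched barcodes. Its median level per barcode was 105, 1942 and 3387 CPM in cycling and 0, 0 and 1502 CPM in matched barcodes, although the ranges overlapped. *Krt14* was found in 6, 10 and 131 against 2, 4 and 122, and its summed level was 641, 470 and 2303 CPM against 146, 1196 and 1936 CPM, lower in the cycling barcodes of control 2. After merging, *Krt14* was found in 5, 7 and 100 against 2, 7 and 93, so control 2 no longer had more. *Krt15*, another basal and outer root sheath keratin gene, was found in 9, 15 and 147 against 7, 13 and 148. The summed level of 14 basal keratinocyte genes differed by 2.67, -0.71 and 0.33 on the log2 scale, or by 2.39, -1.42 and 0.25 after merging, and 3 of 13 were found in at least 2 times as many cycling barcodes of the *Vdr* cKO-labelled library, beside the 6.5% of all genes, among them *Itgb1* (44 against 17) and *Lamb3* (37 against 18), which encode an integrin and a chain of laminin 332. After merging, 1 of 13 was, and neither of these. With barcodes as deposited, 1 of the 13 reached 10 barcodes in the cycling set alone. Of the 12 that reached 10 in the matched set, 2 had the ratio.

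Genes of the differentiated epidermis did not differ past the test. The mean number found of 20 genes was 9.78, 12 and 11.4 against 12, 12.6 and 12.1, and their summed level differed by -1.17, 0.00 and -0.39 on the log2 scale, or by -1.30, 0.40 and -0.33 after merging. None of 20 was found in at least 2 times as many cycling barcodes and 1, *Lce1a1*, in at least 2 times as many matched ones, beside the 6.5% and 5.45% of all genes, in the *Vdr* cKO-labelled library, and after merging none. Without any minimum, 2 of the 20 were found in more and 16 in fewer cycling barcodes of that library, beside 6554 and 6583 of 19921 genes. The edgeR test covered 19 and called none, whereas against all other kept barcodes, not matched, it called *Lor* and *Lce1m* lower. *Lor* had a median of 414, 10207 and 1356 CPM per cycling barcode against 11990, 5198 and 4447 CPM per matched barcode, so that control 2 went the other way by the median. The summed level of *Lor*, with barcodes as deposited, was 1568, 16815.5 and 8378 CPM against 3024, 20557.9 and 11309 CPM, lower in cycling barcodes of each library. The ranges overlapped in each library. *Krt10*, *Krtdap*, *Krt77* and *Dmkn*, the most abundant of the list, were each found in nearly every barcode of both sets. *Ivl*, the gene of involucrin, was found in 1, 6 and 50 cycling against 2, 8 and 67 matched barcodes.

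**Figure D5:**
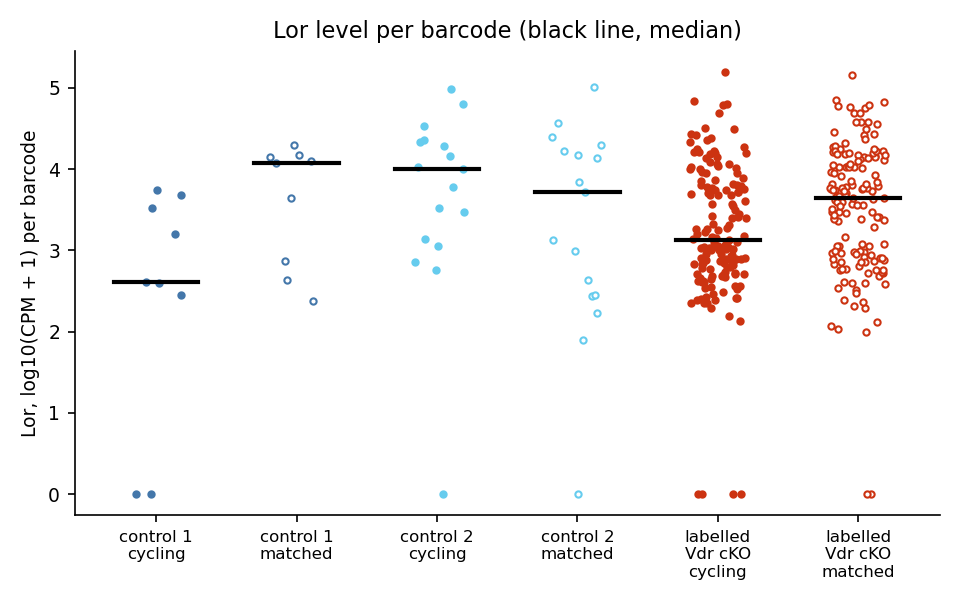
Level of *Lor* per barcode, as log10(CPM + 1) (y axis), in cycling and matched other barcodes of each library (x axis), with the median as a line. In control 1 and in the *Vdr* cKO-labelled library the cycling medians of 414 and 1356 CPM lie below the matched ones of 11990 and 4447 CPM, and in control 2 above; all ranges overlap.

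Genes of immune cells were found in part of both sets. At least 1 T cell gene was found in 2, 3 and 48 cycling against 1, 5 and 50 matched barcodes, and at least 1 antigen-presenting gene in 1, 8 and 47 against 0, 5 and 42. Of the T cell list, 2, 1 and 15 cycling barcodes had at least 2 of 10 genes against 0, 1 and 12 matched ones, and *Cd7*, *Trdc* and *Nkg7* were each found in 2 of the 9 cycling barcodes of control 1. The list had 1607, 15.1 and 253 CPM in cycling barcodes against 28.0, 108 and 247 CPM, and *Cd7* made up 1045 CPM of that in control 1. After merging, *Cd7* and *Nkg7* were each found in 1 cycling barcode of control 1, and the list had 765 against 233 CPM there. Of the antigen-presenting list, 0, 2 and 12 had at least 2 of 9 genes against 0, 2 and 13, and the invariant chain gene *Cd74*, the most abundant, was found in 0, 6 and 22 against 0, 3 and 23. For melanocytes and for fibroblasts and endothelium, no cycling barcode of the pairs had 2 genes of the list. Over all cycling barcodes, which include the 4 that found no partner, the melanocyte genes *Mitf* and *Dct* were found in 0, 1 and 5 and in 0, 1 and 4 barcodes. The part of these cells in the shares was not tested.

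Genes of the HF layers ranged from rare to common. Inner root sheath genes were found in no control barcode of the comparison, and in the *Vdr* cKO-labelled library *Tchh*, the gene of trichohyalin, was found in 15 cycling against 22 matched barcodes, with 4 and 2 barcodes holding at least 2 of 8 genes. Of the companion layer, *Krt17* was found in 2, 9 and 117 against 1, 9 and 119, and *Krt6a* in 0, 2 and 21 against 1, 2 and 34. Of the matrix and hair shaft, *Mt4* was found in 2, 1 and 26 against 1, 5 and 39, *Dlx3* in 0, 3 and 11 against 0, 2 and 12, and *Msx2* in 5 of each set of the *Vdr* cKO-labelled library. Of these 3 lists, 1, 3 and 2 genes were found in at least 10 barcodes of a set of that library, and 0 of them reached a ratio of 2 in either direction, which so few genes cannot set apart from the 6.5% and 5.45% of all genes. Of the bulge and outer root sheath, *Sox9* was found in 1, 1 and 49 against 0, 0 and 55, and *Postn* in 0, 0 and 31 against 0, 0 and 21. Of the upper follicle, *Sostdc1*, which encodes an inhibitor of BMP and Wnt signalling, was found in 4, 4 and 45 against 0, 2 and 34, and *Defb6* in 2, 4 and 87 against 0, 3 and 66. *Cst6*, the most abundant of the list, was found in 4, 12 and 129 against 5, 15 and 140, and *Krt79* in 2, 8 and 92 against 2, 6 and 90. Of the sebaceous list, *Elovl4* was found in 5, 11 and 87 against 8, 15 and 106, and *Scd1* in 5, 11 and 70 against 5, 11 and 74.

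*Gata3* and *Dst*, which the study examined in this skin, were compared in the same pairs. *Dst*, the gene of a plakin that anchors basal keratinocytes, was found in 4, 5 and 122 cycling against 2, 3 and 102 matched barcodes. After merging, *Dst* was found in 3, 4 and 91 against 2, 4 and 80, so control 2 no longer had more. *Gata3*, a transcription factor gene of the inner root sheath and epidermis, was found in 1, 10 and 127 against 5, 10 and 113. *Vdr* was found in 0, 3 and 37 against 1, 5 and 30. None of these passed the test (edgeR, adjusted p = 0.9996 for each). The summed levels of apoptosis genes were 98.6, 175 and 407 CPM against 409, 441 and 381 CPM, and after merging 429, 171 and 438 CPM against 64, 191 and 386 CPM, so the direction in control 1 turned, with *Mcl1* found in 0, 2 and 42 against 1, 4 and 51 and *Bax* in 1, 3 and 21 against 0, 3 and 26. Of the genes of the stress response to dissociation, *Fos* was found in 3, 4 and 109 against 3, 6 and 106. *Jun* was found in 4, 3 and 113 against 0, 4 and 114. Of 12 such genes found in at least 10 barcodes of a set of the *Vdr* cKO-labelled library, 0 reached a ratio of 2 in either direction. So few genes cannot set this apart from the 6.5% and 5.45% of all genes. The 7 vitamin D genes had 108, 182 and 396 CPM against 325, 739 and 458 CPM, the direction turning in the last library after merging (408 against 381 CPM), and the 5 erythroid genes 0, 98.7 and 47.9 CPM against 16.8, 112 and 44.1 CPM. Of the 4 and 1 of them found in at least 10 barcodes of a set there, 0 reached a ratio of 2, too few to set beside the shares of all genes.

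The cycling barcodes of the *Vdr* cKO-labelled library were set against those of the controls, with the control spread as the only measure of error. Of 4902 genes with at least 50 CPM in the cycling barcodes of a library, 877 (17.9%) were over 2-fold above both controls and 161 (3.28%) over 2-fold below both. With edgeR's TMM factors the numbers were 579 and 224. With control 1 in its place the 2 counts together came to 69.5% of the genes and with control 2 to 30.7%, against 21.2%, so the 9 cycling barcodes of control 1, with 101418 counts, stood furthest apart and these calls cannot be told apart from the spread between libraries. The highest by fold, *Xist*, *Postn*, *Hmmr*, *4930523C07Rik* and *Car6*, had 162, 98.7, 90.5, 84.7 and 76.5 CPM and no count in either control, where 3 counts amount to 29.6 and 3.46 CPM. *Xist* was found in 64 cycling and 63 matched barcodes and *Hmmr*, a spindle gene, in 34 and 1. The lowest, *Dhrs9*, *Dxo*, *Dsel*, *Dtwd2* and *Scd2*, had 0.820 to 9.29 CPM against 59.2 to 168 CPM in control 1 and 32.3 to 166 CPM in control 2, and each rested on 1 or 2 barcodes of control 1.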

How the data were processed

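Single-cell RNA sequencing of P18 dorsal skin was analysed from the deposited matrices. The authors deposited raw counts per gene and barcode. Their processing notes name mm10, and the study's methods credit the alignment to Seurat, which does not map reads. The tool that mapped them and whether PCR copies were collapsed are not given in the sources used here. All columns were used. Only 14.5%, 22.2% and 26.9% of the entries above 0 equal 1, so copies of a molecule can be included. The intervals of the shares count each barcode as a separate cell, so barcodes moved by 1 base can make them too narrow. The members, gene lists and tests were chosen with earlier results of these data known. Doublets were not called here and were left in.

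Each cycling barcode was paired without reuse with another kept barcode by the assignment of least total distance in log2 detected genes, within 0.25, which dropped 0, 1 and 3 barcodes. Counts were summed per set and library and tested with edgeR 4.0.16 (quasi-likelihood, filterByExpr, TMM, library as a block, Benjamini-Hochberg) in R 4.3.3. DESeq2 1.42.0 was an alternative. Matching used scipy 1.17.1 in Python 3.11.15. CPM are summed counts per 1000000 counts, and log2 differences of lists are with 1 CPM added. The samples are pools, so p-values measure the spread between 3 pools. Named genes were the rule genes, *Vdr*, *Dst*, *Gata3*, *Krt14* and *Lor*, genes past the edgeR test, up to 4 genes of each list with the highest mean CPM in cycling barcodes, the 5 genes furthest apart in each direction between libraries, and *Xist* with Y-linked genes. Other genes, the ratio of barcodes and the merging were chosen after their values were seen. On simulated data of 4541 genes with the spread of these libraries, edgeR called 28 of 35 genes changed 256-fold and 0 of 43 changed 4-fold, and with a small spread, on 5097 genes, 43 of 45 changed 4-fold. Symbols not found in the files were *Cdkn2a*, *Shh*, *Krt85* and *Pdgfra*. Results for some genes of the lists are not reported here.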

Additional observations from a re-analysis of the deposited data

Results flagged for a closer look

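The apoptosis genes had a log2 difference between cycling and matched barcodes of 0.10 in the *Vdr* cKO-labelled library and of -2.04 and -1.32 in control 1 and control 2, so the controls had the opposite sign. After merging the values were 0.18, 2.73 and -0.16, so that control 1 no longer had it. The difference was not tested, and the control sums rest on 9 and 17 barcodes. Among barcodes outside the limits for kept barcodes, 1 of 160 (0.625%) in the *Vdr* cKO-labelled library had at least 2 of the 6 genes, against 1 of 1308 (0.0765%) and 0 of 802 in the controls.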

How the results depend on the processing

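Libraries could not be paired between genotypes, which share only replicate number 1. The test of cycling against matched barcodes was paired within each library, which was the block. Without this library block 16 genes were higher, 2 of them mitosis genes. Genes higher numbered 13 with DESeq2, 4 matched on total counts, 6 unmatched, 4 without shared or adjacent barcodes, 1 at 300 or more genes and under 5% mitochondrial counts, 1 after merging, and 0 with each gene counted once (302 genes tested), with 3 or more of the 6 genes, or merged and counted once. Leaving out each library gave 0 to 1 higher and 0 to 1 lower (*Lce1m* without control 1), and 0 mitosis genes. Genes lower numbered 1 with DESeq2 and 2 unmatched. Mitosis genes numbered 5, 2 and 3 with DESeq2, matched on counts and unmatched, and 0 once per barcode, with 3 or more genes, merged, or merged and once.

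Shares from 500 genes on were 1.19% and 7.28% in control 1 and the *Vdr* cKO-labelled library; with 3 or more genes 0.135%, 0.483% and 2.63%; at 2 or more counts 4.23% in the last, with a standardised log2 of 1.99; with 200 genes drawn 0.156%, 0.181% and 0.634%, log2 1.91; thinned to 1000 counts 0.501% and 2.19% in control 2 and the last, log2 2.38. Without a control it was 2.17 to 2.30.

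Genes above both controls numbered 312 and 2139 from 100 and 20 CPM, 577 at 3-fold, 564 counted once, 579 with TMM and 540 with DESeq2 factors, and 1283 to 2260 without a control. Genes below numbered 59 at 3-fold, 242 counted once, and 975 to 980 without a control.

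The mean log2 of mitosis genes (2.87, SD 0.616, n = 3) was 2.02 counted once, 3.56 matched on counts and 4.68 with 3 or more genes, where replication was 3.22, chromatin and tubulin 1.96, basal 2.96 and differentiated -2.01. With 3 or more genes, control 1 had only 1 barcode with 3 and 1 with 4 of the 6 genes, a pair moved by 1 base. Control 2 had 5 barcodes with 3 and 3 with 4. The basal mean of 0.76 reversed to -0.19 without control 1 and was up to 1.5 on leaving out another library. Causes were not tested. Control sets of 9 and 18 barcodes limit all comparisons.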

Other observations

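Some genes of no list differed in number of barcodes in the same direction in each library and were picked for it after their values were seen. After merging this no longer held for *Ptn* (1 against 1 in control 2), *Spag1* (4 against 4) and *Ptgs1* (6 against 6). *Pclaf*, which encodes a PCNA-binding factor, was found in 2, 4 and 41 cycling barcodes of control 1, control 2 and the *Vdr* cKO-labelled library and in 0, 0 and 6 matched ones. *Spc24*, of the kinetochore, was found in 2, 2 and 27 against 0, 0 and 2, and *Anp32b*, of a histone chaperone, in 8, 8 and 101 against 2, 7 and 80. *Nucks1*, of a chromatin protein, was found in 3, 7 and 95 against 2, 4 and 61. *Cavin1*, a gene of caveolae, was found in 3, 8 and 63 against 0, 1 and 27, and *Ptn*, the gene of the growth factor pleiotrophin, in 2, 3 and 65 against 0, 1 and 29. In the other direction, *Zfp664* was found in 0, 3 and 13 cycling against 1, 4 and 38 matched barcodes, *Spag1* in 0, 5 and 11 against 1, 6 and 34, and *Ptgs1*, of cyclooxygenase 1, in 3, 8 and 48 against 6, 12 and 69.

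Over all kept barcodes, without the rule, the mitosis list had 510, 453 and 887 CPM, the replication list 450, 435 and 563 CPM, and the basal keratinocyte list 5109, 3672 and 13934 CPM in control 1, control 2 and the *Vdr* cKO-labelled library. Per 1000 detected genes, 0.731, 0.695 and 1.34 were mitosis genes and 0.789, 0.863 and 1.01 replication genes.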
